A study of Homo sapiens with 8 samples.

Results

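The tripartite motif (TRIM) genes encode proteins that share a RING finger, B-box zinc fingers and a coiled coil, followed in most members by a C-terminal domain that sets what the protein binds. The RING finger makes most of them E3 ubiquitin ligases. Several are restriction factors against viruses or regulators of RIG-I and cGAS-STING signaling, and some of these genes are themselves induced by interferon, whereas others are nuclear cofactors of transcription. The 72 genes described here are all rows, of 57992 in the Molm13 table, whose symbol is TRIM and a number with at most a single closing letter A, B, C or L. All 72 identifiers were also found among the 58174 rows of the THP1 table, and all 72 are protein-coding genes in GENCODE 29. TRIM proteins that go by other names, such as PML, were not counted as members.

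The libraries hold bulk poly(A) RNA of Molm13 and THP1 cells, which are human acute myeloid leukemia (AML) lines of monocytic type that carry an MLL-AF9 fusion. Each line expressed a control shRNA (shCtrl, genotype given as WT) or an shRNA against PRMT9 (shPRMT9), an arginine methyltransferase. Doxycycline (Dox) induction was given to all 4 groups, and each group held 2 libraries, 8 in all. The labels do not say whether the 2 libraries of a group came from separate cultures, so p-values measure only the spread between these libraries. The suffixes 1 and 2 were taken as replicate numbers here, although the study numbers its hairpins in the same way, and the spread between the shPRMT9 libraries may include that between hairpins. In the titles, THP1 library names contain OCI, while every other label gives THP1.

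PRMT9 was low in every library labelled as knockdown. In Molm13 it was at 16.2 and 14.8 CPM (a gene's counts scaled to a common library total) with shCtrl and at 2.19 and 2.63 CPM with shPRMT9. In THP1 it was at 12.4 and 12.7 CPM with shCtrl and at 2.38 and 2.74 CPM with shPRMT9. The ratio of shPRMT9 to shCtrl was 0.156 in Molm13 and 0.205 in THP1. Library totals ranged from 18720950 to 27356870 counts, so that 3 counts, the floor for a gene at 0, correspond to 0.11 to 0.16 CPM (counting error only). Of 9 myeloid markers, 8 were above 1 CPM in each line, and none of the T-cell, erythroid or epithelial markers was. PAX5 was the single B-cell marker of 4 above that level, and COL1A1 the single fibroblast marker, in THP1 with shPRMT9. The myeloid marker below it was CD14 in Molm13 and MEIS1 in THP1, where MEIS1 was at 0.208 CPM with shCtrl against 73.4 CPM in Molm13. The summed level of the myeloid markers ranged from 1030 to 1040 CPM with shCtrl and from 1610 to 1620 CPM with shPRMT9 in Molm13, and from 2330 to 2360 CPM and from 3660 to 3800 CPM in THP1. LYZ made up most of this sum, at a mean of 633 CPM with shCtrl and 1002 CPM with shPRMT9 in Molm13 and 1884 and 3078 CPM in THP1, while MPO fell, from 61.1 to 41.2 CPM (FDR 3.26e-13) and from 7.5 to 4.24 CPM (FDR 2.23e-05). ITGAM rose 3.87-fold in Molm13 and 2.22-fold in THP1, CSF1R 4.16-fold and 2.04-fold, and CD14 5.27-fold in THP1. PAX5 rose 4.08-fold in THP1 (FDR 7.37e-13) and was not called in Molm13 (FDR 0.0605). The sum of the myeloid markers was thus higher with shPRMT9 alongside the TRIM genes that rose. The markers' part in any TRIM result was not tested. In bulk RNA, more cells of a type and more RNA per cell cannot be told apart.

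The lines were close in how much of the family they expressed. RPKM, which also divide by exon length, were at least 1 with shCtrl for 35 of the 72 genes in Molm13 and for 33 in THP1, and at least 10 for 11 and 12 genes. TRIM28 (KAP1), the corepressor that KRAB zinc finger proteins recruit, had the highest level in both lines, at 97.8 ± 2.44 RPKM (SD, n = 2) in Molm13 and 115.8 ± 3.76 RPKM (SD, n = 2) in THP1. In Molm13 it was followed by TRIM27, a nuclear and endosomal ligase, at 29.5 ± 0.195 RPKM, and TRIM25, the ligase that modifies RIG-I, at 24.4 ± 0.791 RPKM. TRIM22, a nuclear restriction factor, was at 22.9 ± 0.0419 RPKM there, and TRIM13, a ligase of the endoplasmic reticulum, at 17.6 ± 0.563 RPKM. The next in THP1 were TRIM14, an adaptor of MAVS and cGAS that lacks a RING finger, at 41.3 ± 0.780 RPKM and TRIM25 at 35.9 ± 0.317 RPKM. TRIM21, a cytosolic antibody receptor and ligase, was at 23.3 ± 1.08 RPKM in THP1, and TRIM65, a ligase for the RNA sensor MDA5, at 16.7 ± 0.395 RPKM. Set side by side, without a test because the tables come separately, TRIM22 and TRIM27 had the higher level in Molm13 and TRIM14 in THP1. Some genes were near absent from 1 line: TRIM71, an RNA-binding ligase of stem cells, was at 2.22 RPKM in Molm13 and 0.0944 RPKM in THP1, and TRIM72, a membrane repair protein of muscle, at 2.37 and 0.204 RPKM.

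**Figure D1:**
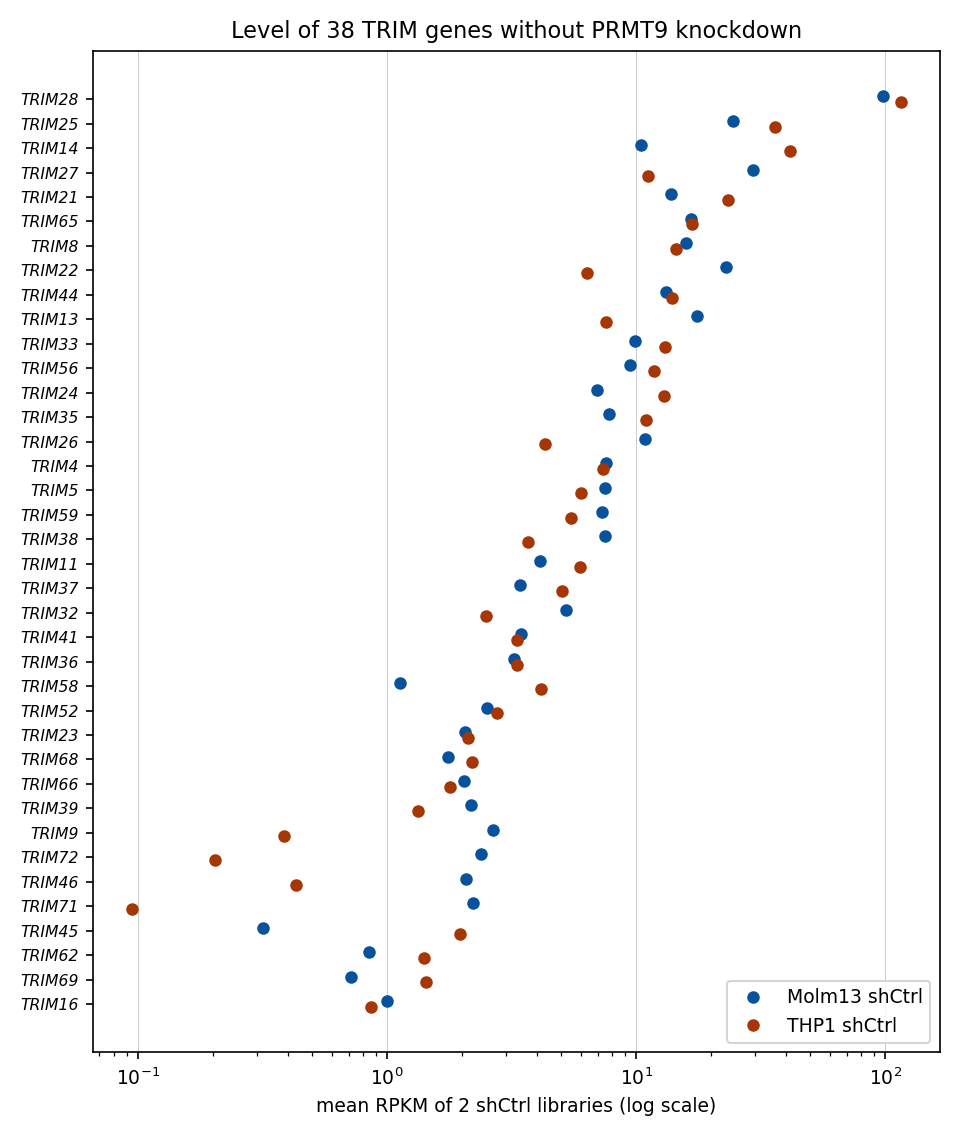
Mean RPKM of the 2 shCtrl libraries of each line on a log axis, for the 38 TRIM genes with at least 1 RPKM in a line, sorted by the mean of both lines. TRIM28 lies far to the right in both lines, while TRIM22, TRIM14, TRIM26, TRIM71 and TRIM72 show wide gaps between the lines.

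Of the 72 genes, 40 had enough counts to be tested in both lines and 4 more in THP1 alone (TRIM3, TRIM7, TRIM31 and TRIM73). The other 28 were tested in neither line. Among these, 14 had 0 counts in all 8 libraries: TRIM15, TRIM29, TRIM40, TRIM42, TRIM43, TRIM43B, TRIM48, TRIM49C, TRIM51, TRIM60, TRIM64, TRIM64B, TRIM64C and TRIM77. Another 14 had at least 1 count somewhere, and their highest counts in a library were 9 for TRIM61, 6 for TRIM34, 5 for TRIM63, 4 for TRIM47 and TRIM55, 2 for TRIM6, TRIM17, TRIM49, TRIM50 and TRIM74, and 1 for TRIM10, TRIM49B, TRIM54 and TRIM67. Many of these are genes known from testis, muscle or epithelium. TRIM34, which is known as interferon-induced, shares 83.0% of its exon bases with the readthrough gene TRIM6-TRIM34, which had 0 counts in all libraries, so the counts of TRIM34 are uncertain.

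A differentially expressed gene (DEG) had to pass 3 limits: FDR under 0.05 in edgeR's quasi-likelihood test over all genes, a change of more than 1.5-fold either way, and a library with an RPKM over 1. In Molm13, 30 of the 40 tested TRIM genes (75.0%) had an FDR below 0.05 (15 higher and 15 lower), beside 66.9% of all tested genes. DEGs higher with shPRMT9 were 5 TRIM genes (12.5%, against 11.4% of all genes), namely TRIM5, TRIM21, TRIM36, TRIM66 and TRIM69. DEGs lower were TRIM9 and TRIM58 (5.0%, against 11.3%). In Molm13 the share of higher DEGs was thus close to that of all genes, while that of lower DEGs, which rests on 2 genes, was smaller. In THP1, 20 of 44 TRIM genes (45.5%) had an FDR below 0.05 (12 higher and 8 lower), beside 37.6% of all genes. The 12 include TRIM31, which passed the THP1 filter only through its shPRMT9 libraries and is not read as a result. There, 9 TRIM genes were higher DEGs (20.5%, against 3.83% of all genes): TRIM5, TRIM14, TRIM21, TRIM22, TRIM25, TRIM26, TRIM37, TRIM56 and TRIM69. No TRIM gene was a lower DEG in THP1, against 2.39% of all genes, although 8 were lower by FDR alone. The median log2 fold change of the tested TRIM genes was -0.04 in Molm13 and 0.04 in THP1, near the 5e-04 and -6e-04 of all tested genes.

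TRIM5, TRIM21 and TRIM69 were higher DEGs in both lines, that is 3 of 40 (7.5%), against 2.06% of the 13476 genes tested in both. No TRIM gene was a lower DEG in both lines or a DEG in opposite directions, against 0.534% and 0.445% of all genes. By FDR alone, 8 TRIM genes were higher in both lines, 6 were lower in both and 4 went in opposite directions. The matching shares over all genes were not computed, so these counts are not read as a result about the family. Line by line, 33.4% of all genes were higher and 33.5% lower at this FDR in Molm13, and 19.0% and 18.6% in THP1.

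TRIM21 (ENSG00000132109, chr11:4384897-4393696, minus strand) was at 25.9 and 27.4 CPM with shCtrl and 54.4 and 61.3 CPM with shPRMT9 in Molm13. In THP1 it was at 46.4 and 43.4 CPM with shCtrl and 87.2 and 81.9 CPM with shPRMT9. Every knockdown library lay above every control library, even across the lines. Its log2 fold change was 1.12 ± 0.061 (SE, FDR 1.36e-20) in Molm13 and 0.91 ± 0.051 (FDR 2e-14) in THP1, which is 2.18-fold and 1.88-fold. The rise was 0.20 smaller in THP1 on the log2 scale (difference THP1 minus Molm13 -0.20 ± 0.081, FDR 0.0447), a call lost under several alternatives, such as DESeq2 (FDR 0.114).

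TRIM69 (ENSG00000185880, chr15:44728988-44767829, plus strand), which restricts some RNA viruses, was at 7.39 and 5.92 CPM with shCtrl and 15.5 and 15.8 CPM with shPRMT9 in Molm13. THP1 held it at 13.5 and 13.1 CPM with shCtrl and 29.2 and 28.7 CPM with shPRMT9. The groups did not overlap in either line, and the level about doubled in each. The log2 fold change was 1.23 ± 0.11 (SE, FDR 9.4e-14) in Molm13 and 1.12 ± 0.075 (FDR 9.59e-13) in THP1. The difference between the lines was -0.10 ± 0.14 (FDR 0.636) and was not called.

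TRIM5 (ENSG00000132256, chr11:5663557-5938619, minus strand), the capsid-binding restriction factor of retroviruses, was at 34.1 and 37.9 CPM with shCtrl and 52.8 and 55.3 CPM with shPRMT9 in Molm13. In THP1 it was at 29.2 and 28.2 CPM with shCtrl and 62.8 and 64.3 CPM with shPRMT9. The THP1 libraries thus started lower and ended higher. The log2 fold change was 0.59 ± 0.056 (SE, FDR 1.46e-12) in Molm13, just past the fold limit, and 1.15 ± 0.056 (FDR 6.8e-16) in THP1. In Molm13 it fell short of the limit without shCtrl replicate 1 (0.51), without shPRMT9 replicate 2 (0.56), with no filter on low counts (0.575) and with both lines in a single fit (0.582). The rise was larger in THP1 by 0.57 ± 0.082 on the log2 scale (FDR 4.14e-09). TRIM5 shares 7.95% of its exon bases with another coding gene on the same strand, AC104389.4, and the strand setting of the counting was not given in the sources used here.

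**Figure D2:**
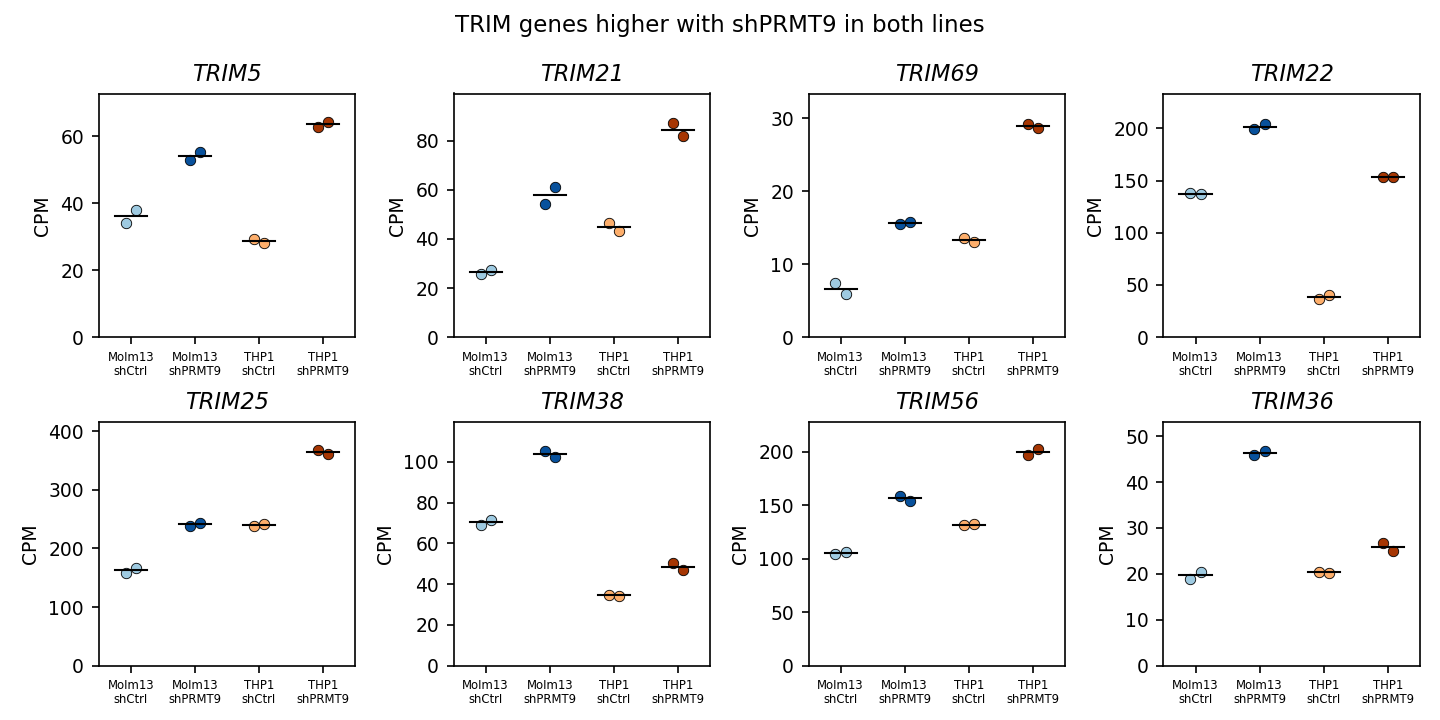
CPM of each library (points, 2 per group) and the group mean (line) for the 8 TRIM genes higher with shPRMT9 in both lines at an FDR below 0.05, with axes that start at 0. In each panel both shPRMT9 libraries of a line lie above both shCtrl libraries of that line, and the largest fold change is that of TRIM22 in THP1, from 36.3 and 40.1 CPM to 154 and 153 CPM.

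The start regions of these 3 genes each hold letters of the core of an interferon-stimulated response element (ISRE) known from the promoters of interferon-induced genes. The motif searched was GAAANNGAAA on both strands, in RefSeq windows of 300 bases (250 before the start and 50 from it on, GRCh38.p14). The 30 bases around each match, which lie in annotated exons of the gene in GENCODE 29, read as follows in the gene's own direction, with the ISRE letters in capitals:
TRIM21 (chr11:4393663-4393692, minus strand): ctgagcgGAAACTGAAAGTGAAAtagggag
TRIM5 (chr11:5685082-5685111, minus strand): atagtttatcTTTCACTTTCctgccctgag
TRIM69 (chr15:44736456-44736485, plus strand): ctaatgagggTTTCTCTTTCtcttaagcaa

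In TRIM21 a pair of overlapping matches ran from base 18 to 27 and from base 24 to 33 of the transcript, in the sense direction. The matches in TRIM5 (-27 to -18, counted from the start) and TRIM69 (-62 to -53) read on the opposite strand. The motif was found in 3.57% of all 35116 windows and in at least 1 window of 4.38% of the 27305 genes with one. Among TRIM genes, 56 had a window, and 10 of them (17.9%) held the motif. Of the 10 TRIM genes with a window that were higher DEGs in a line, 5 held it, and of the 23 other tested ones 3 did (TRIM2, TRIM16 and TRIM44). TRIM34 and TRIM64C, which were not tested, also held a match. TRIM22 had no window in the table. The letters TTCNNNGAA of the GAS element, known from genes induced by interferon gamma, were in 7.66% of all windows and 9.38% of genes with one. Of the 56 TRIM genes with a window 21.4% held them, with none of the 10 and 5 of the 23. A match in these letters is a description of the sequence and was not tested as a binding site.

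TRIM25, TRIM56 and TRIM38 rose in both lines at a size around the fold limit. TRIM25 was at 159 and 166 CPM with shCtrl and 239 and 243 CPM with shPRMT9 in Molm13, and at 238 and 241 CPM and 367 and 361 CPM in THP1. Its log2 fold changes were 0.57 ± 0.031 in Molm13, just short of the limit, and 0.61 ± 0.032 in THP1, just past it. TRIM56, a ligase without a C-terminal domain that acts on STING and RNA viruses, rose by 0.57 ± 0.035 and 0.60 ± 0.036 on the log2 scale. TRIM38, a regulator of Toll-like receptor and cGAS signaling, rose by 0.56 ± 0.041 (FDR 3.86e-16) in Molm13 and 0.50 ± 0.058 (FDR 6.19e-08) in THP1 and was a DEG in neither. For none of the 3 was a difference between the lines called (TRIM25, 0.05 with FDR 0.382; TRIM56, 0.04 with FDR 0.567; TRIM38, -0.05 with FDR 0.636). That TRIM25 and TRIM56 were DEGs in THP1 alone thus turned on which side of 1.5-fold they fell. TRIM56 was at 0.58 in THP1 without shPRMT9 replicate 2, short of the limit. TRIM22, TRIM25, TRIM38 and TRIM56 lay between 0.55 and 0.57 in Molm13, and with upper quartile normalization all 4 became DEGs there, 9 higher in all. In THP1 the same normalization put TRIM25 (0.5847) and TRIM56 (0.5779) short of the limit, as did library size alone (0.5793 and 0.5725), which left 7 higher DEGs rather than 9.

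TRIM22 (ENSG00000132274, chr11:5689689-5737089), next to TRIM5 on the short arm of chromosome 11, had the largest rise of the family in THP1 among the genes tested in both lines. In Molm13 it was at 138 and 137 CPM with shCtrl and 199.7 and 204 CPM with shPRMT9. In THP1 it was at 36.3 and 40.1 CPM with shCtrl and 154 and 153 CPM with shPRMT9. The Molm13 controls were thus near the level that THP1 reached only after knockdown. The log2 fold change was 0.55 ± 0.032 (FDR 8.08e-20) in Molm13 and 2.00 ± 0.048 (FDR 4.88e-23) in THP1, or 1.47-fold and 4.01-fold. The effect was larger in THP1 by 1.46 ± 0.057 on the log2 scale (FDR 3.48e-40). TRIM22 shares 10.7% of its exon bases with OR56B1, an olfactory receptor gene on the same strand.

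TRIM14 and TRIM26 moved in opposite directions in the lines. TRIM14 (ENSG00000106785, chr9:98069275-98119212, minus strand) was at 56.1 and 57.7 CPM with shCtrl and 46.2 and 43.8 CPM with shPRMT9 in Molm13. THP1 held it at 229 and 223 CPM with shCtrl and 364 and 373 CPM with shPRMT9. It fell by 0.34 ± 0.051 on the log2 scale in Molm13 (FDR 1.53e-07) and rose by 0.71 ± 0.032 in THP1 (FDR 1.93e-16), a difference of 1.06 ± 0.058 (FDR 6.47e-30). TRIM14 shares 7.72% of its exon bases with NANS on the opposite strand.

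TRIM26 (ENSG00000234127, chr6:30184455-30213427, minus strand), a ligase in the major histocompatibility complex that acts on IRF3, was at 46.5 and 48.5 CPM with shCtrl and 37.1 and 32.8 CPM with shPRMT9 in Molm13. THP1 held it at 18.8 and 18.9 CPM with shCtrl and 35.0 and 35.1 CPM with shPRMT9. After knockdown the lines therefore sat at much the same level, reached from above in Molm13 and from below in THP1. The log2 fold change was -0.45 ± 0.059 (FDR 7.55e-09) in Molm13 and 0.89 ± 0.067 (FDR 1.12e-11) in THP1, and these differed by 1.35 ± 0.092 (FDR 8.47e-24). Both genes also hold ISRE letters (capitals) in the 250 bases before their start. As with TRIM5, TRIM21 and TRIM69, these bases are shown because the gene was a higher DEG in a line and held the motif:
TRIM14 (chr9:98119223-98119472, minus strand): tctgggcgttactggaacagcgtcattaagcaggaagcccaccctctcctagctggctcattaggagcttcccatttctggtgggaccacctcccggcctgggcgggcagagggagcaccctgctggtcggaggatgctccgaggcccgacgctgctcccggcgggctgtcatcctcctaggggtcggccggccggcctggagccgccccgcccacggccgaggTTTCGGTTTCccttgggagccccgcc
TRIM26 (chr6:30213407-30213656, minus strand): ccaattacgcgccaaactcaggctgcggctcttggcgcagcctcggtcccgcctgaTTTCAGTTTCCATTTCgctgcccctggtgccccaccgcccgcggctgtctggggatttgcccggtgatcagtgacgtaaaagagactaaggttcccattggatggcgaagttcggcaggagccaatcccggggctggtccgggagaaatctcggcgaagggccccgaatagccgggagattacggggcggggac

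The TRIM14 match lay at -26 to -17 from the start, and in TRIM26 a pair of overlapping matches lay at -194 to -185 and -188 to -179. Of the printed bases, none in TRIM14 and 21 in TRIM26 lie in the annotated gene.

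TRIM37 and TRIM8 also went opposite ways by FDR. TRIM37, a peroxisomal and centrosomal ligase with a MATH domain, was at 19.9 and 17.7 CPM with shCtrl and 15.8 and 17.1 CPM with shPRMT9 in Molm13, and at 27.7 and 27.6 CPM and 50.9 and 45.3 CPM in THP1. The groups lay close in Molm13 and far apart in THP1. Its rise in THP1 was 0.80 ± 0.064 on the log2 scale (FDR 3.75e-11), and the difference between the lines, 1.00 ± 0.11 (FDR 1.68e-13), fell just short of the limit of 1. Its fall in Molm13, -0.19 ± 0.083 (FDR 0.0427), was lost under most alternatives (FDR up to 0.376). TRIM8, a ligase in NF-κB and STAT signaling, rose by 0.21 ± 0.051 in Molm13 (FDR 4.74e-04) and fell by 0.21 ± 0.059 in THP1 (FDR 0.0051), a fall that lost its call without THP1 shCtrl replicate 1 (-0.16, FDR 0.116).

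Over the family, a different effect of shPRMT9 in the lines was called for 18 of the 44 TRIM genes with a value (40.9%), against 42.2% of all 19288 genes. The effect was higher in THP1 for 12 of them and lower for 6. A difference above 1 on the log2 scale was called for 4 (9.09%, against 9.73% of all genes), namely TRIM14, TRIM22, TRIM26 and TRIM73. TRIM73 had 0 and 0 counts with shCtrl and 3 and 5 counts with shPRMT9 in Molm13, and 44, 28, 35 and 31 counts in THP1. Its fitted difference, -5.26 (FDR 0.00833), depends on the prior count set against those 0 counts, and TRIM73 is nearly identical to TRIM74 and TRIM50, so its counts are uncertain.

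**Figure D3:**
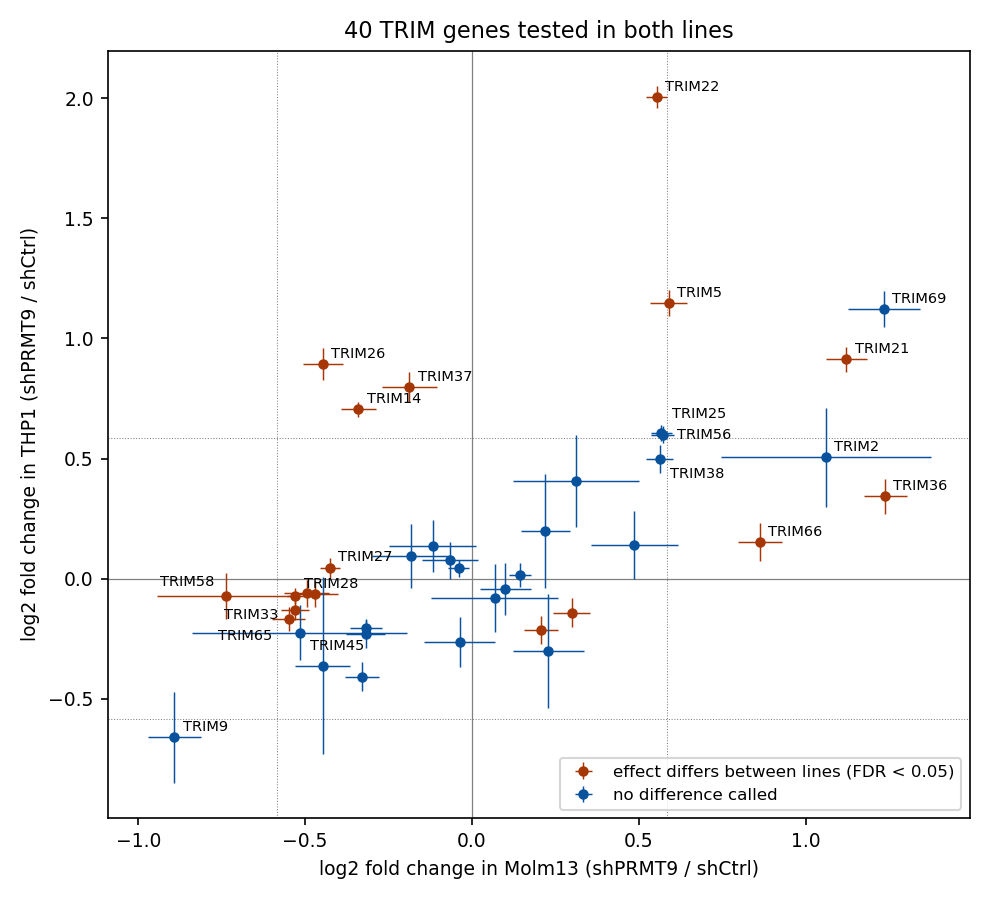
Log2 fold change (shPRMT9 over shCtrl) in Molm13 against THP1 for the 40 TRIM genes tested in both lines, with standard errors as bars and dotted lines at 1.5-fold; orange marks an FDR below 0.05 for the difference between the lines. TRIM5, TRIM21 and TRIM69 lie past 1.5-fold on both axes, and TRIM14, TRIM26 and TRIM37 lie to the left of 0 in Molm13 and above 1.5-fold in THP1.

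The other DEGs of Molm13 were TRIM36, TRIM66, TRIM9 and TRIM58. TRIM36, a microtubule-associated ligase with a COS box, was at 19.0 and 20.4 CPM with shCtrl and 46.0 and 46.9 CPM with shPRMT9 in Molm13, and at 20.5 and 20.1 CPM and 26.6 and 24.9 CPM in THP1. It rose by 1.24 ± 0.064 on the log2 scale in Molm13 (FDR 3.19e-21) and by 0.34 ± 0.072 in THP1 (FDR 3.18e-04), a difference of -0.88 ± 0.10 (FDR 1.71e-12). TRIM66, a testis-enriched relative of TRIM28, rose by 0.86 ± 0.065 in Molm13 (FDR 8.58e-16) and had a log2 fold change of 0.15 ± 0.080 in THP1 (FDR 0.138), a difference of -0.70 ± 0.11 (FDR 1.97e-08). TRIM9, a neuronal ligase, was at 23.6 and 24.0 CPM with shCtrl and 12.6 and 13.1 CPM with shPRMT9 in Molm13. It fell by 0.89 ± 0.080 on the log2 scale there (FDR 2.45e-13) and by 0.66 ± 0.19 in THP1 (FDR 0.00679), where its level was under 1 RPKM and DESeq2 did not call it (FDR 0.0888). No difference between the lines was called for TRIM9 (0.25 ± 0.20, FDR 0.365). TRIM58, a ligase of late erythroid cells, was at 3.13 and 4.14 CPM with shCtrl and 2.24 and 2.11 CPM with shPRMT9 in Molm13. Its fall, -0.74 ± 0.21 (FDR 0.0019), rested on few counts and was lost with DESeq2 (FDR 0.0616) and without the Molm13 shCtrl replicate 2 (FDR 0.0636). Its difference from the -0.07 ± 0.096 of THP1, 0.68 ± 0.22 (FDR 0.00956), was lost with DESeq2 (FDR 0.0707), without the Molm13 shCtrl replicate 2 (0.43, FDR 0.236), and without replicate 2 of shPRMT9 in Molm13 (FDR 0.0792) or in THP1 (FDR 0.0654).

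The nuclear cofactors with a PHD finger and bromodomain fell in Molm13, except TRIM66. TRIM28 was at 388 and 401 CPM with shCtrl and 272 and 275 CPM with shPRMT9 in Molm13, and at 478 and 457 CPM and 436 and 453 CPM in THP1. Groups were clearly apart in Molm13 and close in THP1. The log2 fold change was -0.53 ± 0.027 (FDR 1.13e-21) in Molm13 and -0.07 ± 0.032 (FDR 0.0781) in THP1, and the effect differed by 0.47 ± 0.041 (FDR 6.02e-18). TRIM33 (TIF1-gamma), a ligase and cofactor in SMAD4 and hematopoietic gene control, was at 93.7 and 95.9 CPM with shCtrl and 66.3 and 65.0 CPM with shPRMT9 in Molm13. It fell by 0.53 ± 0.042 on the log2 scale there (FDR 6.44e-15) and by 0.13 ± 0.041 in THP1 (FDR 0.0109, 0.0575 with DESeq2). TRIM24 (TIF1-alpha), a reader of histone H3 and a nuclear receptor cofactor, fell by 0.32 ± 0.048 (FDR 1.5e-07) and 0.21 ± 0.040 (FDR 1.46e-04), with no difference called (FDR 0.102).

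**Figure D4:**
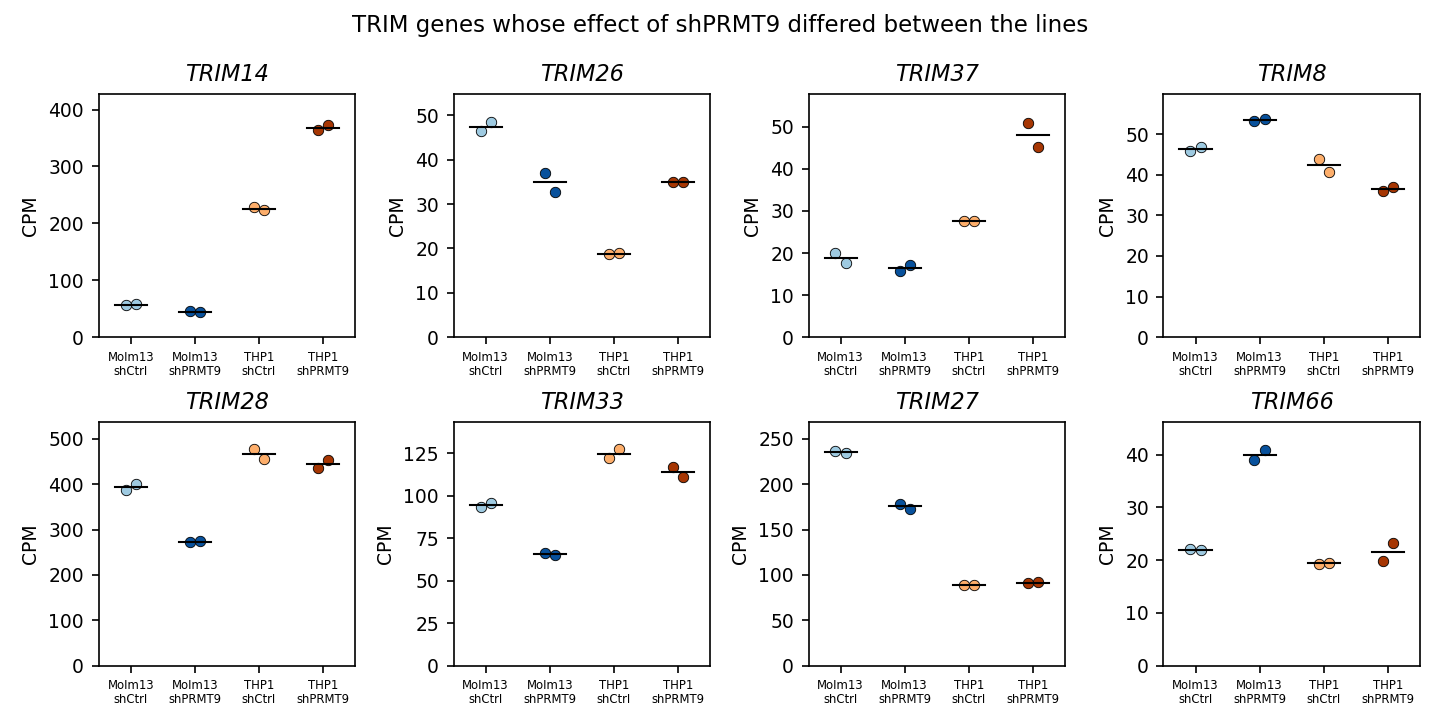
CPM of each library (points, 2 per group) and the group mean (line) for 8 TRIM genes with an FDR below 0.05 for the difference between the lines, with axes that start at 0. TRIM14 and TRIM26 step down in Molm13 and up in THP1. TRIM28, TRIM33, TRIM27 and TRIM66 show a clear step in Molm13. In THP1 their groups lie close, and of these genes only TRIM33 was called (FDR 0.0109, 0.0575 with DESeq2). TRIM28 (FDR 0.0781), TRIM27 (FDR 0.427) and TRIM66 (FDR 0.138) were not called there.

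Other genes fell in Molm13 alone or in both lines. TRIM27 fell by 0.43 ± 0.030 on the log2 scale in Molm13 (FDR 9.7e-17) and was at 0.05 ± 0.042 in THP1 (FDR 0.427). TRIM65 fell by 0.55 ± 0.049 (FDR 2.51e-13) and by 0.17 ± 0.049 (FDR 0.00765, 0.0555 with DESeq2). TRIM11 and TRIM35 fell by 0.47 ± 0.068 and 0.50 ± 0.068 in Molm13, and their log2 fold changes in THP1 were -0.06 ± 0.052 (FDR 0.379) and -0.06 ± 0.056 (FDR 0.437). The effects on TRIM11, TRIM27, TRIM35 and TRIM65 were called different between the lines. TRIM59, a membrane ligase, fell in both lines, by 0.33 ± 0.052 (FDR 3.69e-07) and 0.41 ± 0.060 (FDR 3.3e-06), and TRIM41 by 0.32 ± 0.058 (FDR 5.44e-06) and 0.23 ± 0.057 (FDR 0.00192). TRIM59 shares 19.9% of its exon bases with SMC4 on the opposite strand. Together with TRIM9, TRIM24, TRIM33 and TRIM65, TRIM41 and TRIM59 make up the 6 genes lower in both lines by FDR.

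Grouped by domain, with each gene in a single group, rises and falls were found in most groups. Genes listed under a COS box or as lacking a RING finger were kept apart, whatever their C-terminal domain. Beside all counts of lists at an FDR below 0.05 stand the shares over all tested genes, 33.4% higher and 33.5% lower in Molm13 and 19.0% and 18.6% in THP1. The PRY-SPRY group, which leaves out such genes of the other groups (TRIM14, for example), held 38 members. Of these, 18 were tested in Molm13 (8 higher and 7 lower at an FDR below 0.05) and 19 in THP1 (7 higher and 2 lower). Their median log2 fold changes were -0.02 and 0.14. The 4 genes with a PHD finger and bromodomain had 1 higher and 3 lower in Molm13, and 0 higher and 2 lower in THP1, with medians of -0.42 and -0.10. Of the 8 genes with a COS box, 3 were tested in each line, with 1 higher (TRIM36) and 1 lower (TRIM9). Among 8 genes without a C-terminal domain, 3 were tested in Molm13 (2 higher) and 5 in THP1 (2 higher and 1 lower). A rise of TRIM31 in THP1, at 4 and 1 counts with shCtrl and 11 and 11 with shPRMT9, is among these, but TRIM31 passed the filter only through its shPRMT9 libraries, so its call is not read as a result. Of the 4 genes with NHL repeats, none was called in THP1. In Molm13, TRIM2 rose by 1.06 ± 0.31 (FDR 0.00293, 0.077 with DESeq2) at under 2 CPM, and TRIM71 fell by 0.45 ± 0.083 (FDR 8.04e-06). Of 5 genes with another domain (MATH, ARF, filamin or transmembrane), 1 rose and 2 fell in each line. These were TRIM13, up by 0.14 ± 0.033 (FDR 1.96e-04), with TRIM37 and TRIM59 down in Molm13, and TRIM37 up with TRIM59 and TRIM23, at -0.26 ± 0.10 (FDR 0.0489), down in THP1. Among the 5 genes listed as lacking a RING finger, TRIM16 rose in Molm13 by 0.49 ± 0.13 (FDR 0.00109, 0.056 with DESeq2), where reads may be split with its near copy TRIM16L. TRIM14 was the other gene of this group to be called in Molm13 and the only one in THP1. TRIM72, with a PRY-SPRY domain, rose by 0.22 ± 0.074 in Molm13 (FDR 0.00817). TRIM3, TRIM7, TRIM16L, TRIM32, TRIM39, TRIM44, TRIM45, TRIM46, TRIM52, TRIM62 and TRIM68 were called in no line in which they were tested, with log2 fold changes from -0.52 (TRIM45 in Molm13) to 0.41 (TRIM16L in THP1).

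The 9 genes listed as known interferon-induced TRIM genes were TRIM5, TRIM14, TRIM21, TRIM22, TRIM25, TRIM34, TRIM38, TRIM56 and TRIM69. All but TRIM34 were tested in both lines. In Molm13, 7 of the 8 rose at an FDR below 0.05, TRIM14 fell, and 3 were DEGs (median on the log2 scale 0.57). In THP1 all 8 rose and 7 were DEGs (median 0.81). Over all tested genes, 33.4% rose and 11.4% were higher DEGs in Molm13, 19.0% and 3.83% in THP1, and the medians were 5e-04 and -6e-04. The list was drawn up with earlier results of these libraries known and is no independent evidence of a direction.

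The family's 19 members on chromosome 11 included 8 spread over chr11:4384897-8671866 (TRIM3, TRIM5, TRIM6, TRIM21, TRIM22, TRIM34, TRIM66 and TRIM68). Of these, 5 were tested in Molm13, where TRIM5, TRIM21, TRIM22 and TRIM66 rose, and 6 in THP1, where TRIM5, TRIM21 and TRIM22 rose. Over all tested genes, 33.4% were higher in Molm13 and 19.0% in THP1 at an FDR below 0.05. TRIM68 was at -0.12 ± 0.13 (FDR 0.44) and 0.14 ± 0.11 (FDR 0.364), and TRIM3 in THP1 at 0.01 ± 0.19 (FDR 0.966). Within this stretch, not every tested member was therefore called. The 8 members at chr6:25962802-30343729 were mixed too: TRIM38 rose in both lines, TRIM26 went opposite ways, TRIM27 fell in Molm13, and TRIM39 was at -0.18 ± 0.12 (FDR 0.166) and 0.09 ± 0.13 (FDR 0.625).

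TRIM proteins under other names and partners of the family were read from the same fits. PML (TRIM19), the scaffold of nuclear bodies, rose by 1.11 ± 0.057 in Molm13 (FDR 2.71e-21) and 1.12 ± 0.043 in THP1 (FDR 3.57e-18). MEFV (pyrin, TRIM20), an inflammasome sensor of myeloid cells, rose by 1.47 ± 0.082 and 0.82 ± 0.062. Of the other 4 genes of this kind, MID1 and MID2 were tested in THP1 only and not called, and TRIML1 and TRIML2 were not tested.

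TRIM ligases work with ubiquitin-conjugating enzymes, of which 14 were listed and tested. In Molm13, 2 rose and 7 fell at an FDR below 0.05, and in THP1 5 rose and 4 fell, beside 66.9% and 37.6% of all genes called in either direction. UBE2L6, the conjugating enzyme for ISG15, was at 2.15 and 2.09 CPM with shCtrl and 7.96 and 8.40 CPM with shPRMT9 in Molm13, and at 17.8 and 15.5 CPM and 91.2 and 92.9 CPM in THP1. It was the only higher DEG of the 14, at 3.85-fold (FDR 3.87e-14) and 5.53-fold (FDR 1.18e-22). Of all genes, 11.4% were higher DEGs in Molm13 and 3.83% in THP1. UBE2D1, a general partner of RING ligases, fell by 0.74 ± 0.070 in Molm13 (FDR 9.61e-13) and rose by 0.30 ± 0.083 in THP1 (FDR 0.00526). UBE2V2, a cofactor for lysine-63 chains, fell by 0.71 ± 0.037 in Molm13 (FDR 4.57e-21) and was at -0.07 ± 0.038 in THP1 (FDR 0.17).

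Of 14 partners in nucleic acid sensing, 11 rose and 2 fell in Molm13, and 9 rose and 2 fell in THP1, beside 33.4% and 19.0% of all genes that rose. Higher DEGs in both lines were DDX58 (RIG-I, the RNA sensor that TRIM25 modifies), IRF7, IFI35 and IKBKE. Of all genes tested in both lines, 2.06% were. DDX58 had its lower control level and larger step in THP1, as TRIM22 did. It was at 38.4 and 40.3 CPM with shCtrl and 63.1 and 67.6 CPM with shPRMT9 in Molm13, and at 11.98 and 12.5 CPM and 56.9 and 56.9 CPM in THP1. Its log2 fold change was 0.73 ± 0.052 and 2.21 ± 0.067, a difference of 1.49 ± 0.090 (FDR 2.84e-27). IRF7, a driver of interferon genes, rose by 1.95 ± 0.080 and 1.61 ± 0.055, IFI35 by 1.05 ± 0.083 and 1.62 ± 0.057, and the kinase gene IKBKE by 0.63 ± 0.079 and 0.67 ± 0.064. In Molm13, IKBKE fell short of the fold limit without shCtrl replicate 1 (0.54) and without shPRMT9 replicate 1 (0.55). TMEM173 (STING) rose by 0.63 ± 0.029 in Molm13 (FDR 8.36e-23) and was at -0.06 ± 0.040 in THP1 (FDR 0.237). The KRAB repressor complex around TRIM28 held no DEG among 13 genes. In Molm13, 5 of these rose and 6 fell at an FDR below 0.05, among them CHD4 at -0.55 and SETDB1, the histone methyltransferase that TRIM28 recruits, at 0.38. In THP1, 5 fell and none rose. Over all genes, 66.9% in Molm13 and 37.6% in THP1 were called at this FDR. Higher and lower DEGs were 11.4% and 11.3% of all genes in Molm13, and 3.83% and 2.39% in THP1.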

How the data were processed

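Poly(A) RNA-seq of Molm13 and THP1 cells (shCtrl or shPRMT9, 2 libraries per group) was sequenced on a HiSeq system by the authors. Reads per gene were deposited by the authors as raw, whole-number counts, 1 table per line. The submitters' notes name TopHat2 2.0.8, HTSeq 0.11.2, edgeR 3.30.3 and hg38, and the annotation release and the strand setting of the counting were not given in the sources used here. The fold change, FDR and RPKM limits follow the study's methods, whose upper fold limit was read as above 1.5.

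From the counts on, everything was computed here in R 4.3.3. Each line was fitted alone with edgeR 4.0.16 (limma 3.58.1): TMM, filterByExpr with a minimum of 10 counts, the quasi-likelihood test and Benjamini-Hochberg adjustment over all genes tested. Standard errors were derived from the log2 fold change and the F value. A fit of all 8 libraries tested the interaction of line and knockdown (THP1 minus Molm13). RPKM used the exon lengths of the Molm13 table. Library totals ranged from 18720950 to 27356870 and TMM factors from 0.989 to 1.017. Replicates differed beyond sampling noise (chi-square per gene 1.35 to 2.17), so none was taken as a repeat deposit. Their spread was still small, and small changes could pass the FDR limit. The biological coefficient of variation fitted by edgeR was 0.0201 in Molm13 and 0.0247 in THP1. On simulated counts from the libraries' means, 200 (Molm13), 199 (THP1) and 199 (interaction) of 200 genes of at least 50 counts changed 2-fold were called, with 17, 9 and 6 unchanged genes. The simulated spread between replicates was fixed and small. This check of the code does not bear on smaller changes or on genes of few counts.

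The members and gene lists were chosen with earlier results of these data known. Genes named were TRIM DEGs, those with a difference between lines above 1 (log2), the 5 highest per line, the interferon-induced list, untested members and partner DEGs. Other TRIM genes were named after their values were seen. Promoter windows came from RefSeq (GRCh38.p14), and 56 of 72 members had one. Alternatives were other normalizations, DESeq2 1.42.0, filters, DEG limits, a replicate block, a common fit and leaving out each library.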

Additional observations from a re-analysis of the deposited data

Results flagged for a closer look

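A difference between THP1 and Molm13 in the effect of shPRMT9 was called, by edgeR's interaction test over all genes with Benjamini-Hochberg adjustment, for 18 TRIM genes. Values are THP1 minus Molm13 on the log2 scale. The effect was higher in THP1 for TRIM22 (1.46), TRIM26 (1.35), TRIM14 (1.06), TRIM37 (1.00), TRIM58 (0.68), TRIM5 (0.57), TRIM27 (0.49), TRIM28 (0.47), TRIM35 (0.45), TRIM11 (0.42), TRIM33 (0.41) and TRIM65 (0.39). It was lower in THP1 for TRIM73 (-5.26, against 0 counts in the Molm13 controls), TRIM36 (-0.88), TRIM66 (-0.70), TRIM4 (-0.43), TRIM8 (-0.40) and TRIM21 (-0.20). The call for TRIM58 was lost with DESeq2 (FDR 0.0707) and without Molm13 shCtrl replicate 2 (0.43, FDR 0.236), Molm13 shPRMT9 replicate 2 (FDR 0.0792) or THP1 shPRMT9 replicate 2 (FDR 0.0654), and that for TRIM21 with DESeq2 (FDR 0.114), under the replicate block (FDR 0.0502) and without Molm13 shCtrl replicate 1, Molm13 shPRMT9 replicate 2, THP1 shCtrl replicate 1 or THP1 shPRMT9 replicate 2 (FDR 0.0626 to 0.264). That for TRIM73 was lost without either Molm13 shCtrl library (FDR 0.0564 and 0.0514). TRIM4, a ligase with a PRY-SPRY domain, rose by 0.30 ± 0.056 in Molm13 (FDR 8.49e-06) and was at -0.14 ± 0.060 in THP1 (FDR 0.0647). Line and table cannot be told apart in these differences, since each line was deposited as a table of its own.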

How the results depend on the processing

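Over 19 alternative settings, 1312 values of single genes were recomputed. Of these, 1244 kept their direction and their side of the FDR limit, 38 lost the call by FDR, 14 gained it and 16 changed sign. The fold change and RPKM limits of a DEG played no part in this count, so genes that crossed the fold limit alone were counted as kept. A value of the same sign without an FDR was also counted as kept. The number of TRIM DEGs higher in Molm13 (5) was 9 with upper quartile normalization, 3 with a fold change above 2, 15 by FDR alone, 4 with no filter on low counts or with both lines in a single fit, 6 with no RPKM minimum, and 4 to 8 when a library was left out (4 without Molm13 shCtrl replicate 1, 8 without its replicate 2). The number lower (2) was 1 with DESeq2, 0 with a fold change above 2, 15 by FDR alone and 1 to 2 when a library was left out (1 without Molm13 shCtrl replicate 2). In THP1, 3 rather than 9 were higher with a fold change above 2, 7 with library size alone or upper quartile normalization, 12 by FDR alone, 10 with no RPKM minimum and 8 to 9 when a library was left out (8 without THP1 shPRMT9 replicate 2). TRIM31, whose call in THP1 is not read as a result, is among the 12 and the 10. The number lower there (0) was 1 with no RPKM minimum, 8 by FDR alone and 1 with both lines in a single fit. The 16 changes of sign were all in values near 0 that were not called. TRIM13 in THP1 was at -0.011 with library size alone, -0.0053 with upper quartile normalization and -0.041 to 0.071 without a library. Without a library, TRIM58 in THP1 ranged from -0.20 to 0.049 and TRIM73 from -0.38 to 0.38. The difference between the lines of TRIM25 was -0.0077 with upper quartile normalization and ranged from -0.020 to 0.054 without a library, and that of TRIM69 from -0.30 to 0.010. For TRIM56 it was -0.0036 with library size alone, -0.018 with upper quartile normalization and -0.018 to 0.030 without a library. The cause was not tested. Replicate numbers are shared by the groups, but with 2 pairs per line and correlations of deviations of -0.087 and -0.015 they were not taken as pairs. With the replicate number as a block, the difference of TRIM21 between the lines (-0.19, FDR 0.0502) and the fall of TRIM37 in Molm13 (-0.19, FDR 0.0512) lost their call and TRIM2 in THP1 (0.50, FDR 0.0472) gained one. Differences for genes of few counts, such as TRIM58, TRIM73 and TRIM31, are limited by depth.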
